A study of Mus musculus with 4 samples.

Results

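The ERVL family of endogenous retroviruses was followed through nanoCAGE libraries of the mouse, from the fully grown oocyte to the 2-cell stage at 48 h, the 8-cell stage at 68 h and the blastocyst at 92 h. It was taken as the rows named ERVL and ERVL? in a table of read counts per repeat family, which are 2 of the 47 family rows. The mice at all stages were of an F1 cross between the strains C57BL/6J and CBA/H, with no treatment or mutation named in the labels. Per the labels' protocols, nanoCAGE selects capped RNA and reads its 5′ ends where little total RNA is at hand. Each stage is 1 sample, read in 3 runs for the oocyte, the 8-cell embryo and the blastocyst and in 2 runs for the 2-cell embryo. No label tells whether the runs came from separate pools of cells or embryos, so the runs were taken as repeat runs of 1 sample. There are no replicates, no p-value was computed, and the spread of the runs may be technical.

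LTR retrotransposons move by copying their RNA into DNA, and the long terminal repeat (LTR) at their 5′ end is the promoter from which that RNA starts. ERVL is the family of MERVL, a mouse element known for strong transcription in the 2-cell embryo. The LTR of MERVL is named MT2, and copies of it that stand alone in the genome are known to serve as promoters of host transcripts when the embryonic genome is switched on. The row named ERVL also takes in older ERVL copies, so that MERVL and MT2 were not counted apart from them. The question mark in ERVL? is the mark of repeat annotations for copies whose place in the family is uncertain. MaLR, the family of the MT and ORR1 elements, is a relative of ERVL and known for abundant transcripts in the oocyte. ERVK, which holds the IAP and ETn elements, and ERV1 are the other abundant LTR families. The table holds repeat families and no genes, so stage marker genes could not be checked.

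Run totals lay between 36922 and 1919263 counts over the 47 rows. The 34 transposon rows (those of LINE, SINE, LTR retrotransposon and DNA transposon type) made up 37.9% to 95.1% of a run, the 9 LTR rows took 19.0% to 51.0%, and rRNA took 0.807% to 44.9%. ERVL was therefore expressed as percent of all counts, of transposon counts and of LTR counts. A share gives the place of ERVL among the counted families only. A higher share through more ERVL RNA and one through less RNA of other families cannot be told apart, and neither can a change in the number of RNA molecules per cell.

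ERVL was low in the oocyte and higher in the 2-cell and 8-cell embryos, with widely spread runs in the blastocyst. In oocyte runs 1.1, 1.2 and 2 it took 0.403%, 2.30% and 1.60% of all counts. Its share was 5.96% in 2-cell run 1 and 13.6% in 2-cell run 2. It took 6.56%, 6.39% and 8.29% in 8-cell runs 1.1, 1.2 and 2, and in blastocyst runs 1.1, 1.2 and 2 it took 2.79%, 1.63% and 9.02%. All 2-cell and 8-cell runs were above all oocyte runs. The blastocyst runs were spread widely, with run 1.2 among the oocyte runs and run 2 above 2-cell run 1 and above all 8-cell runs. These shares rest on 602 ERVL counts in blastocyst run 1.2, the fewest, and on 103757 in 8-cell run 2, the most. The exact (Clopper-Pearson) 95% interval for blastocyst run 1.2 was 1.50% to 1.76%, and that for 2-cell run 2 was 13.5% to 13.7%, which covers counting error only. Intervals of 8-cell runs 1.1 and 1.2 overlapped (6.35% to 6.79% and 6.22% to 6.56%), whereas no others did within a stage. All intervals take each count as a separate read and may be too narrow.

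**Figure D1:**
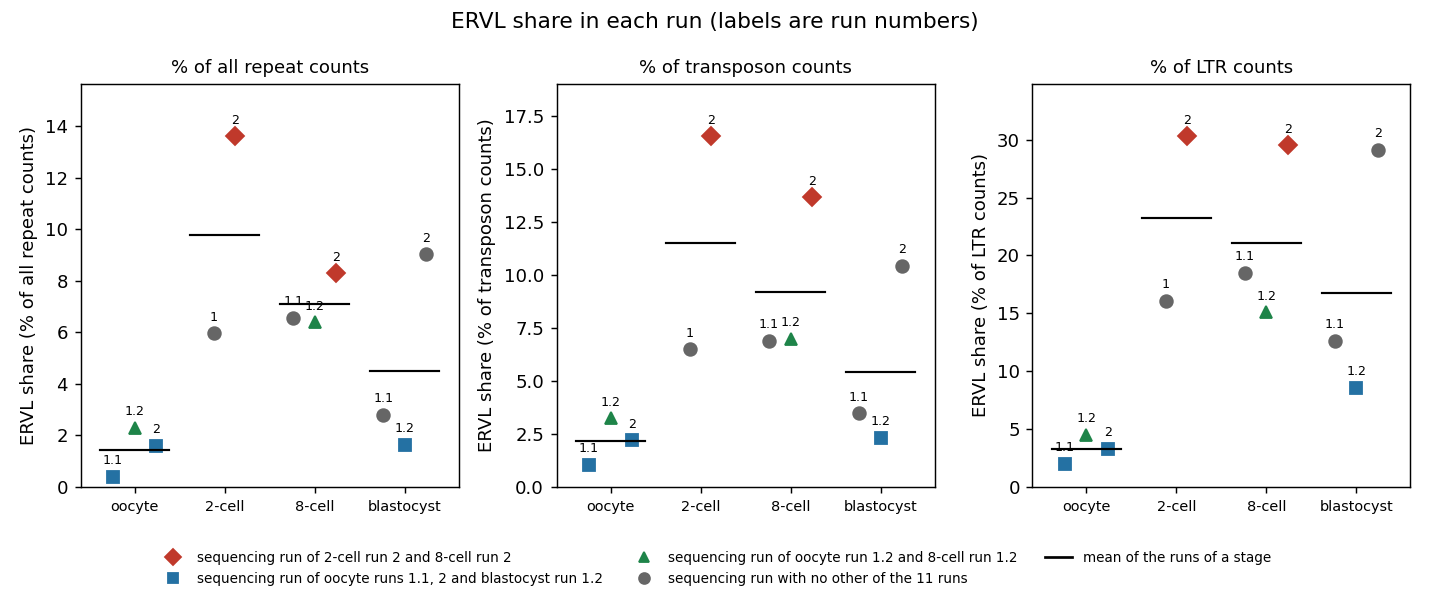
ERVL share of all repeat counts, of transposon counts and of LTR counts (y axes, percent) in the 11 runs by stage (x axis), with 1 point per run, the run number above it and a line at the mean of the runs. As percent of LTR counts the lowest later run, blastocyst run 1.2, stands at 8.56% and the highest oocyte run at 4.51%, whereas as percent of all counts that run lies among the oocyte runs.

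By rank, ERVL was the 15th, 10th and 11th of the 47 families in oocyte runs 1.1, 1.2 and 2. It was the 5th and the 3rd in 2-cell runs 1 and 2 and the 6th, 5th and 4th in 8-cell runs 1.1, 1.2 and 2. In the blastocyst it was the 10th, 12th and 5th in runs 1.1, 1.2 and 2. Among the 9 LTR rows it came second in 2-cell run 2 and 8-cell run 2 and lower in the other runs. In 2-cell run 2, ERVL (13.6% of all counts) stood just above ERVK (13.5%) and below MaLR (16.5%). In 8-cell run 2, ERVL (8.29%) stood above MaLR (7.62%), the only one of the 11 runs in which it did.

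Of transposon counts, ERVL took 1.06%, 3.23% and 2.20% in oocyte runs 1.1, 1.2 and 2. It took 6.50% and 16.5% in 2-cell runs 1 and 2, and its 8-cell shares were 6.90%, 7.01% and 13.7%. In blastocyst runs 1.1, 1.2 and 2 it took 3.48%, 2.32% and 10.4%. On this scale blastocyst run 1.2 again lay among the oocyte runs, and blastocyst run 1.1 lay just above them.

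Of LTR counts, ERVL took 2.00%, 4.51% and 3.30% in the oocyte runs. It took 16.1% in 2-cell run 1 and 30.3% in 2-cell run 2, and 18.5%, 15.1% and 29.5% in 8-cell runs 1.1, 1.2 and 2. In blastocyst runs 1.1, 1.2 and 2 it took 12.6%, 8.56% and 29.1%. All 8 runs after the oocyte were above all 3 oocyte runs. ERVL thus held a larger part of the LTR counts at each embryonic stage than in the oocyte, the blastocyst included.

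The mean of the runs was 1.44% of all counts in the oocyte, 9.78% in the 2-cell embryo, 7.08% in the 8-cell embryo and 4.48% in the blastocyst. In this stage order the means were 2.17%, 11.5%, 9.19% and 5.42% of transposon counts and 3.27%, 23.2%, 21.0% and 16.8% of LTR counts. On each scale the 2-cell embryo was the highest, before the 8-cell embryo, the blastocyst and the oocyte. The 2-cell and 8-cell embryos overlapped in their runs on all 3 scales, as did the 8-cell embryo and the blastocyst. The blastocyst and the oocyte overlapped as percent of all counts and of transposon counts and were apart as percent of LTR counts. Within a stage the highest run exceeded the lowest 5.71-fold in the oocyte, 2.28-fold in the 2-cell embryo, 1.30-fold in the 8-cell embryo and 5.53-fold in the blastocyst. Of LTR counts these distances were 2.25-fold, 1.88-fold, 1.96-fold and 3.40-fold.

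The comparison of the 2-cell embryo with the oocyte spans fertilisation and the start of transcription from the embryo's own genome. A family was said to rise or fall when its mean share differed by 2-fold or more and the runs of the 2 stages did not overlap. ERVL rose to 9.78% of all counts in the 2-cell embryo, against 1.44% in the oocyte, a ratio of 6.81. The lowest 2-cell run was 2.59 times the highest oocyte run, and 2-cell run 2 was 33.8 times oocyte run 1.1. ERVL? rose too, on 19 and 6 counts in the 2-cell runs against 2, 2 and 1 in the oocyte runs. Thus 2 of the 2 rows passed, where 31.9% of the 47 families passed in the upward direction. Among these were other rows with fewer than 100 counts in the 2 stages together, namely ERV1?, Gypsy?, Helitron, MER1_type? and TcMar?. Of the 38 families that reached 100 counts in the 2 stages together, ERVL had the highest ratio but 3, and the median ratio was 1.43. Families above it were Genie? and Y-chromosome, with few oocyte counts, and Tigger, whose runs overlapped.

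ERVL rose among transposon counts as well, to 11.5% in the 2-cell embryo against 2.17% in the oocyte, a ratio of 5.32, where 20.6% of the 34 transposon families rose. The lowest 2-cell run was there 2.01 times the highest oocyte run. Of LTR counts ERVL rose to 23.2% in the 2-cell embryo against 3.27% in the oocyte, a ratio of 7.09, where 44.4% of the 9 LTR families rose. With median-of-ratios size factors the ratio was 5.25. The log2 ratio of the 38 families had a median of -0.15 with that scaling and of 0.52 by share of all counts, and ERVL stood 2.54 and 2.25 above these medians.

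The other abundant LTR families differed from ERVL in this step. LTR families together took 41.0% of all counts in the 2-cell embryo and 39.9% in the oocyte, with overlapping runs. Within that total the difference of 2-cell embryo minus oocyte was 8.34 percentage points for ERVL, 5.41 points for ERVK and -13.1 points for MaLR. ERVK had 13.5% in the 2-cell embryo and 8.04% in the oocyte, with runs apart and a ratio of 1.67, short of the 2-fold limit. MaLR had 16.1% in the 2-cell embryo and 29.2% in the oocyte, and ERV1 had 1.62% in the 2-cell embryo and 1.27% in the oocyte, both with overlapping runs. The call for MaLR depended on the scale, since of transposon counts it fell to 18.6% in the 2-cell embryo, against 45.9% in the oocyte, a ratio of 0.404 with runs apart.

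**Figure D2:**
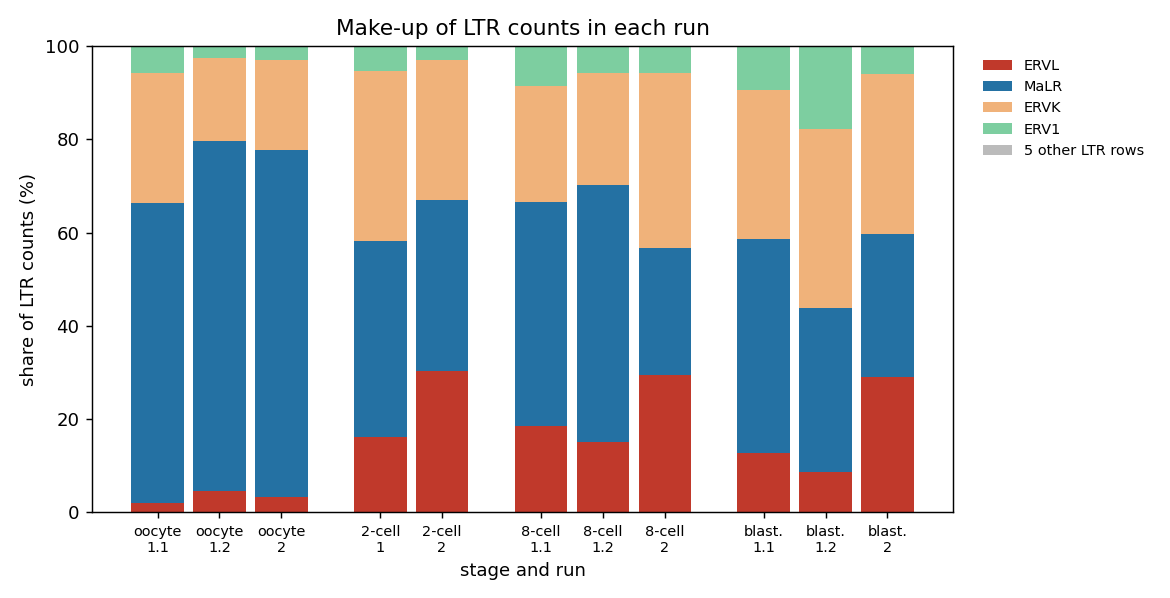
Make-up of LTR counts (y axis, percent) in each of the 11 runs (x axis), as stacked bars of ERVL, MaLR, ERVK, ERV1 and the other 5 LTR rows, which are too small to see. ERVL takes 8.56% to 30.3% in the runs of the later stages and at most 4.51% in the oocyte runs, while MaLR takes 27.2% to 55.0% in the later runs and 64.3% to 75.1% in the oocyte runs.

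The number of ERVL counts per MaLR count needs no total. It was 0.382 and 0.824 in 2-cell runs 1 and 2, against 0.0311, 0.0601 and 0.0443 in oocyte runs 1.1, 1.2 and 2. The 2-cell mean was 13.3 times the oocyte mean. The quotient was 0.385, 0.275 and 1.09 for 8-cell runs 1.1, 1.2 and 2, and 0.275, 0.243 and 0.954 for the blastocyst runs. All 8 runs of the embryonic stages were above all oocyte runs. Between the 3 embryonic stages the runs overlapped, with means of 0.603, 0.582 and 0.491 from the 2-cell embryo to the blastocyst. Since the mean share of MaLR was itself lower in the embryos, the quotient moves with both families.

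ERVL counts per ERVK count averaged 0.726 in the 2-cell embryo (0.443 and 1.01) and 0.165 in the oocyte (0.0718 to 0.253), a ratio of 4.40 with runs apart. The 8-cell runs lay between 0.625 and 0.786 and the blastocyst runs between 0.224 and 0.847, and 1 of the 3 blastocyst runs was within the oocyte range. ERVL counts per ERV1 count averaged 6.80 in the 2-cell embryo, with runs at 3.05 and 10.5, and 1.12 in the oocyte, with runs from 0.346 to 1.86. Relative to each of these 3 families, ERVL was higher in all 2-cell and 8-cell runs than in any oocyte run. Per L1 count, L1 being the main LINE family, ERVL had 0.198 and 0.924 in the 2-cell runs and 0.0427 to 0.286 in the oocyte runs, with overlap and a ratio of means of 3.53. The 8-cell runs, from 0.207 to 0.875, also overlapped the oocyte runs per L1 count, at a ratio of 2.83. The blastocyst mean was 0.137 and the oocyte mean 0.159, a ratio of 0.859 with overlapping runs, so that per L1 count the direction was opposite to that of the shares and of the counts per MaLR, ERVK and ERV1.

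**Figure D3:**
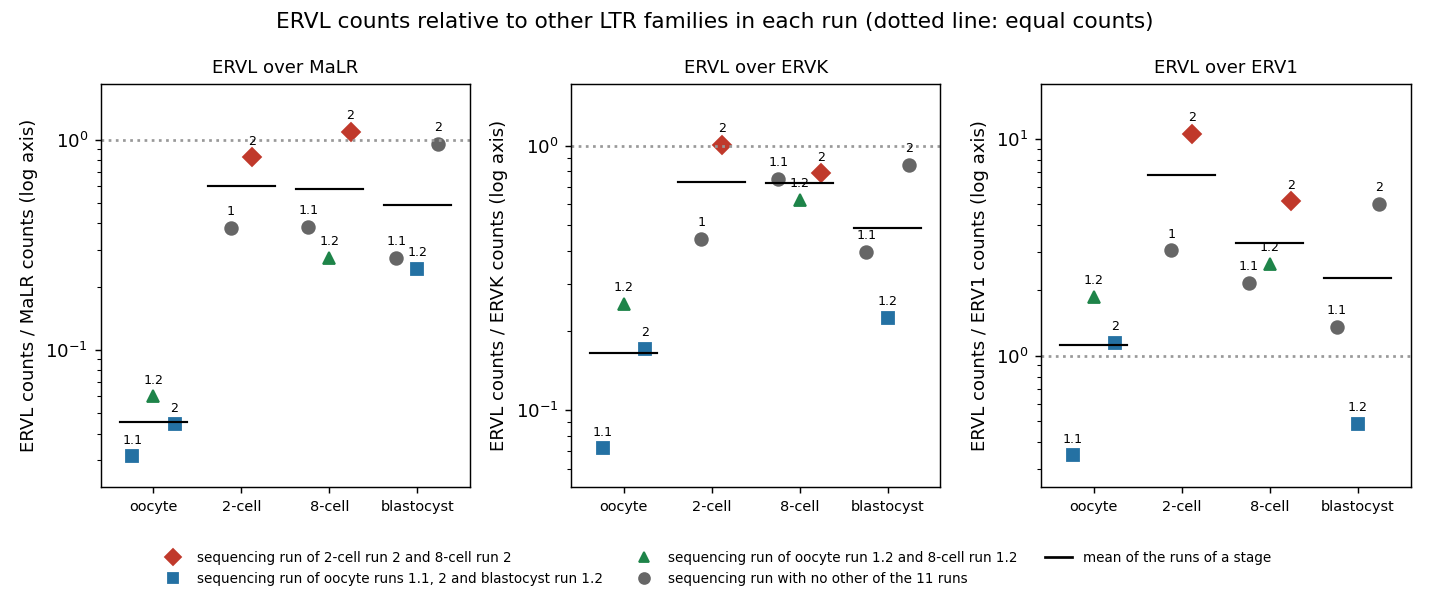
ERVL counts divided by the MaLR, ERVK or ERV1 counts of the same run (y axes, log scale) in the 11 runs by stage (x axis), with a line at the mean of the runs. Over MaLR every embryonic run, from 0.243 to 1.09, stands above every oocyte run, whereas blastocyst run 1.2 lies among the oocyte runs over ERVK and, with run 1.1, over ERV1.

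ERVL was still higher in the 8-cell embryo than in the oocyte. It rose to 7.08% of all counts in the 8-cell embryo, against 1.44% in the oocyte, a ratio of 4.93, and the lowest 8-cell run was 2.78 times the highest oocyte run. By share of all counts 17.0% of the 47 families passed in this direction. ERVL? passed too, on 1, 1 and 9 counts in the 8-cell runs against 2, 2 and 1 in the oocyte runs. A single read made 0.00205% of 8-cell run 1.1 and 0.00125% of 8-cell run 1.2, both shallow, and the exact 95% intervals of these shares, from 5.20e-05% and 3.16e-05% upward, take in the oocyte shares. Of transposon counts the ratio was 4.24, with 11.8% of 34 families rising, and of LTR counts it was 6.43, with 33.3% of 9 families rising. ERVL had the second highest ratio of the 36 families that reached 100 counts in the 2 stages together, after Y-chromosome. On the scales of transposon and LTR counts it had the highest of the 24 such transposon families and of the 5 such LTR families. In this comparison ERVK had 9.85% in the 8-cell embryo and 8.04% in the oocyte, with overlapping runs. ERV1 had 2.36% in the 8-cell embryo and 1.27% in the oocyte, with runs apart at a ratio of 1.86. MaLR had 16.0% of all counts in the 8-cell embryo and 29.2% in the oocyte, with overlapping runs, whereas of transposon counts it fell to 18.7% in the 8-cell embryo, against 45.9% in the oocyte, a ratio of 0.407 with runs apart.

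Whether the blastocyst differed from the oocyte depended on the scale. ERVL had 4.48% of all counts in the blastocyst and 1.44% in the oocyte, a ratio of 3.12 with overlapping runs, and 8 of the 9 pairs of runs were higher in the blastocyst. The exception was blastocyst run 1.2 with oocyte run 1.2. Without blastocyst run 1.2 the ratio was 4.11 and without oocyte run 1.2 it was 4.47, with runs apart in both cases. Only ERVL? of the 2 rows rose by share of all counts, where 27.7% of families did. Of transposon counts the ratio was 2.50, again with overlapping runs and with 26.5% of families rising. Of LTR counts ERVL rose to 16.8% in the blastocyst against 3.27% in the oocyte, a ratio of 5.13, but 66.7% of the 9 LTR families rose there. MaLR, the largest LTR family of the oocyte, had 37.2% of LTR counts in the blastocyst and 71.3% in the oocyte, and all blastocyst runs were below all oocyte runs. The part of MaLR in the higher LTR share of ERVL was not tested.

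Between the 3 embryonic stages ERVL showed no change by the rule. It had 7.08% of all counts in the 8-cell embryo and 9.78% in the 2-cell embryo, a ratio of 0.724, with 3 of 6 pairs of runs higher in the 8-cell embryo. Without 2-cell run 2 that ratio was 1.19. In this comparison 8.51% of families fell, ERVL? among them, and 2.13% rose. ERVL had 4.48% in the blastocyst and 7.08% in the 8-cell embryo, a ratio of 0.633, with 3 of 9 pairs of runs higher in the blastocyst. ERVL? was among the 8.51% of families that rose there, and 4.26% fell. ERVL had 4.48% in the blastocyst and 9.78% in the 2-cell embryo, 2.18-fold lower with overlapping runs, and neither row passed, while 2.13% of families fell and 10.6% rose. Blastocyst run 2 decided these last comparisons. Without it the blastocyst mean was 2.21%, and ERVL fell to 0.312 of the 8-cell mean and to 0.226 of the 2-cell mean, with runs apart. Without 2-cell run 1 the blastocyst fell to 0.330 of the 2-cell embryo.

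**Figure D4:**
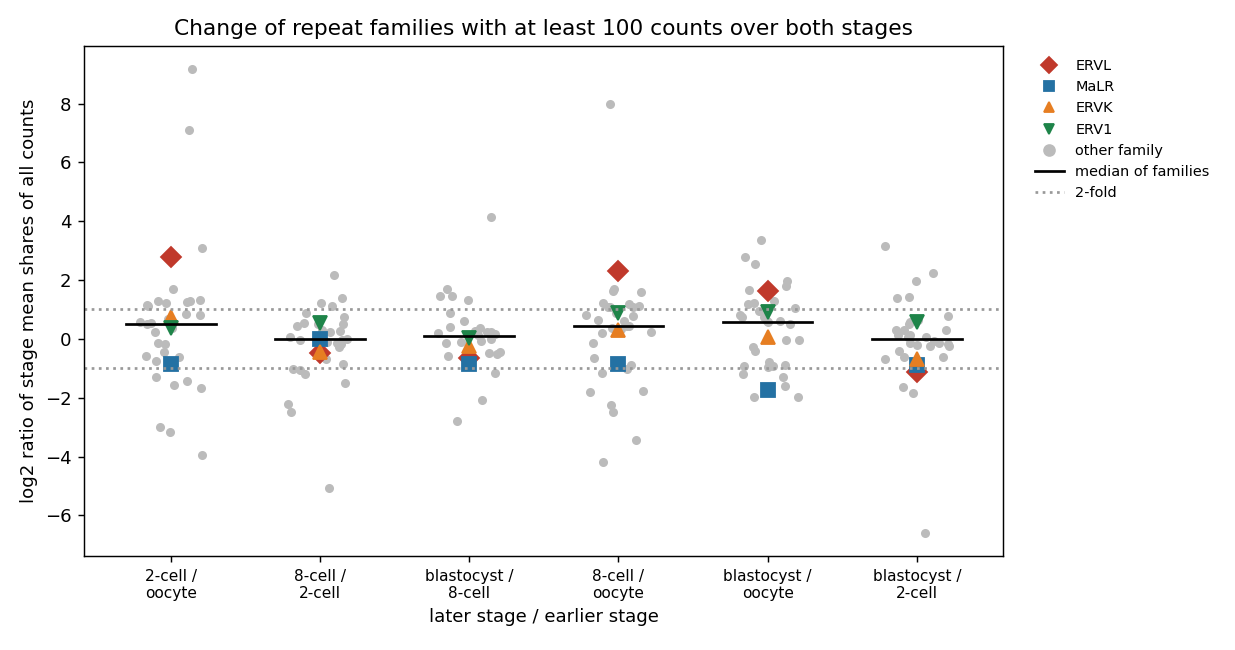
Log2 ratio of the stage mean shares of all counts, later over earlier stage (y axis), of the repeat families that reach 100 counts in the 2 stages together, in the 6 comparisons (x axis), with 1 point per family, a line at their median and dotted lines at 2-fold. ERVL stands at 2.77 for 2-cell over oocyte, 2.30 for 8-cell over oocyte and 1.64 for blastocyst over oocyte, above ERV1, ERVK and MaLR each time, and below 0 in the comparisons among the embryonic stages.

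The sequencing run of each library was inferred from the read names, and 3 sequencing runs held libraries of more than 1 stage. One held 8-cell run 2, with 29.5% of LTR counts in ERVL, and 2-cell run 2, with 30.3%. The read names of both libraries share a tag without the device and run number found in most others. That tag was taken as a sequencing run. Of the runs sequenced apart from these libraries, 8-cell runs 1.1 and 1.2 had 18.5% and 15.1%, and 2-cell run 1 had 16.1%. These last 3 came from 3 different sequencing runs. Of transposon counts 8-cell run 2, at 13.7%, was likewise closer to 2-cell run 2, at 16.5%. The other 8-cell runs had 6.90% and 7.01% on that scale. By share of all counts 8-cell run 2, at 8.29%, was closer to the other 8-cell runs, at 6.56% and 6.39%. There 2-cell run 2 had 13.6%. rRNA, which is part of all counts, took 26.5% in 8-cell run 2, against 0.807% and 3.81% in 8-cell runs 1.1 and 1.2. The part of the sequencing run in the level of ERVL was not tested. Inside it the 8-cell embryo over the 2-cell embryo gave a ratio of 0.609 of all counts, 0.826 of transposon counts and 0.975 of LTR counts. With both libraries left out, ERVL had 6.48% of all counts in the 8-cell embryo and 5.96% in the 2-cell embryo, and the ratio turned to 1.09. The 2-cell embryo was then still 4.15 times the oocyte and the 8-cell embryo 4.51 times, with runs apart.

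A second sequencing run held 8-cell run 1.2 and oocyte run 1.2. Between them ERVL was 2.78 times higher in the 8-cell embryo of all counts, 2.17 times of transposon counts and 3.35 times of LTR counts. The last of the 3 held blastocyst run 1.2 and oocyte runs 1.1 and 2. Of all counts ERVL had 1.63% in the blastocyst and a mean of 1.003% in the oocyte, a ratio of 1.62. That mean was of 0.403% in oocyte run 1.1 and 1.60% in oocyte run 2, the latter close to the blastocyst run. The ratio was 1.42 of transposon counts and 3.23 of LTR counts. No sequencing run held both the 2-cell embryo and the oocyte, so in that comparison the sequencing run and the stage cannot be told apart. Runs whose read names carry the same device name, 2-cell run 1 and oocyte runs 1.1 and 2, had a ratio of 5.93.

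Depth, rRNA and the placement score of reads also differed between runs. Oocyte run 1.1, with the lowest ERVL share, had the most rRNA at 44.9% of counts, against 14.0% and 10.3% in oocyte runs 1.2 and 2. Without the rows of RNA genes the ratio of the 2-cell embryo to the oocyte was 6.27. The median score was 50, 53 and 35 in oocyte runs 1.1, 1.2 and 2, 24 and 43 in 2-cell runs 1 and 2, 16, 28 and 54 in 8-cell runs 1.1, 1.2 and 2, and 16, 32 and 15 in blastocyst runs 1.1, 1.2 and 2. The highest ERVL share went with the highest score in the oocyte, 2-cell and 8-cell runs and with the lowest score in the blastocyst runs. It went with the largest total in every stage. These totals were 1919263 counts in oocyte run 1.2, 245473 in 2-cell run 2, 1252133 in 8-cell run 2 and 93980 in blastocyst run 2. The 2-cell totals were close, with 232146 in run 1, and by lines of the read files run 1 was the deeper (236980 against 211961). The scale of the score is not given in the sources used here, and the parts of score and depth in the shares were not tested.

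ERVL? was a very small row. It held 2, 2 and 1 counts in oocyte runs 1.1, 1.2 and 2, 19 and 6 in 2-cell runs 1 and 2, 1, 1 and 9 in 8-cell runs 1.1, 1.2 and 2, and 2, 1 and 10 in blastocyst runs 1.1, 1.2 and 2. Summed over runs it had 0.000175% of all counts in the oocyte (5 counts, exact 95% interval 5.68e-05% to 0.000408%), 0.00523% in the 2-cell embryo (25 counts), 0.000797% in the 8-cell embryo (11 counts) and 0.00754% in the blastocyst (13 counts, 0.00401% to 0.0129%). Of LTR counts it had 0.000392%, 0.0127%, 0.00273% and 0.0287% in the same order. By these pooled shares the 2-cell and blastocyst levels were above the oocyte and 8-cell levels, while ERVL itself was high in the 8-cell embryo. The pooled 8-cell level rested mostly on 8-cell run 2, with 1252133 of the 1380877 counts over all rows. 8-cell runs 1.1 and 1.2 had 0.00205% and 0.00125% of all counts, on 1 count each, and 2-cell run 2 had 0.00244%. Of LTR counts the 8-cell and 2-cell runs of ERVL? overlapped. The pattern was not particular to ERVL?. By mean of runs, ERV1?, Helitron?, MER1_type? and TcMar? also had 2-cell and blastocyst shares of all counts above their oocyte and 8-cell shares. Gypsy? and Genie? did not. ERV1? had 0.000444%, 0.0178%, 0.00316% and 0.0156% from oocyte to blastocyst.

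The pooled share of ERVL? in the 2-cell embryo was 29.9 times that in the oocyte, with an exact Poisson 95% interval of 11.3 to 100.1 that covers counting error only. The ratio of 8-cell embryo to 2-cell embryo was 0.152 (0.0676 to 0.321), that of blastocyst to 8-cell embryo 9.46 (3.91 to 23.3), that of 8-cell embryo to oocyte 4.56 (1.46 to 16.7) and that of blastocyst to oocyte 43.1 (14.4 to 154). The blastocyst and the 2-cell embryo had a ratio of 1.44 (0.677 to 2.92). The rule uses means of runs with equal weight, and these gave ratios of 22.01 for 2-cell over oocyte, 0.252 for 8-cell over 2-cell, 4.52 for blastocyst over 8-cell, 5.55 for 8-cell over oocyte, 25.1 for blastocyst over oocyte and 1.14 for blastocyst over 2-cell. All but the last passed, but 7 of the 11 runs held 1 or 2 counts, so that a single read and the depth of a run weigh heavily in whether runs were apart. For 10000 ERVL counts there were 0.953 counts of ERVL? in the oocyte, 5.30 in the 2-cell embryo, 0.982 in the 8-cell embryo and 12.7 in the blastocyst. Adding ERVL? to ERVL left the 2-cell to oocyte ratio at 6.81.

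The likeness of other families to ERVL was measured by Pearson's r of log2 shares of transposon counts over the 11 runs, with 0.5 added to each count, and is given as a description. Of 17 transposon families with at least 1000 counts, the most alike were the SINE family ID (r = 0.69), the DNA transposon family MER1_type (0.66) and the SINE family B2 (0.50). The abundant LTR families were less alike, ERVK at 0.28, ERV1 at -0.38 and MaLR at -0.43, and the DNA transposon family hAT was the least alike at -0.51. The runs share stages and sequencing runs and the shares a total, so that they are not independent points. By Spearman's rho the most alike were B2 (0.52), L2 (0.49) and B4 (0.48), and by share of all counts they were ERVK (0.84), ID (0.80) and B2 (0.79).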

How the data were processed

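The deposited table holds read counts per repeat family made by the authors, 47 families by 11 runs, per the file headers. The submitters' processing notes name the genome build mm9 and CASAVA, with no role given. The repeat annotation and the handling of reads with several placements are not stated in what was used here. The deposited read files hold placed 25-base reads with a score of unstated scale. They name no repeat and gave only scores, line numbers and sequencing runs. Table totals were 0.797 to 2.07 times these lines, so intervals may be too narrow.

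Shares are percent of a run's total over all rows, 34 transposon rows or 9 LTR rows, classed by hand from repeat nomenclature. Runs of a stage were averaged with equal weight, and 6 pairs of stages compared. A count of 3 is 0.000156% of the total in the deepest run and 0.00813% in the shallowest. Named are LTR families and, among families with at least 1000 counts, the 3 most like ERVL and the least alike. A few others were named after their values were seen. Members, classes and comparisons were chosen with earlier results of these data known. Scaling, stage averages, single runs and ERVL? were varied. The calculation was tested on simulated counts, with Python 3.11, numpy 2.4.6, pandas 2.3.3, scipy 1.17.1 and matplotlib 3.10.9.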

Additional observations from a re-analysis of the deposited data

How the results depend on the processing

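The 2-cell and 8-cell embryos stayed above the oocyte, with at least 2-fold ratios and runs apart, under each alternative scaling, averaging and left-out run tried for the ERVL share. Per L1 count they did not, with overlapping runs at ratios of 3.53 for 2-cell over oocyte and 2.83 for 8-cell over oocyte. Leaving out 1 run at a time gave ratios of 4.15 to 9.74 for 2-cell over oocyte, 3.63 to 7.06 for 8-cell over oocyte, 1.54 to 4.47 for blastocyst over oocyte, 0.521 to 1.19 for 8-cell over 2-cell, 0.312 to 0.834 for blastocyst over 8-cell and 0.226 to 0.753 for blastocyst over 2-cell. The 8-cell over 2-cell ratio turned to 1.19 without 2-cell run 2, and to 1.09 without the sequencing run of both stages' run 2, an alternative chosen after seeing the data. Calls were gained for blastocyst over oocyte without blastocyst run 1.2 (4.11), without oocyte run 1.2 (4.47), with LTR counts (5.13) and, chosen after seeing the data, among runs of 1 device name (5.31). The calls at 4.47 and 5.31 rest on 1.63% in blastocyst run 1.2 against 1.60% in oocyte run 2, with overlapping intervals. For blastocyst over 2-cell the ratio among runs of that device name was 0.894, with no call. Calls were gained without blastocyst run 2 (0.312 of the 8-cell embryo, 0.226 of the 2-cell embryo) and, for blastocyst over 2-cell, without 2-cell run 1 (0.330). The cause was not tested.

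With 1 run left out at a time, stage means lay at 1.003% to 1.95% for the oocyte, 5.96% to 13.6% for the 2-cell embryo, 6.48% to 7.43% for the 8-cell embryo and 2.21% to 5.91% for the blastocyst. The smaller totals gave higher shares by construction, 3.27%, 23.2%, 21.0% and 16.8% of LTR counts from oocyte to blastocyst and 9.19% of transposon counts in the 8-cell embryo. For ERVL?, without 2-cell run 1 the ratio was 0.326 for 8-cell over 2-cell and 3.08 for blastocyst over 2-cell. Its ratios ran from 14.0 to 46.8 for 2-cell over oocyte, 0.0973 to 0.326 for 8-cell over 2-cell, 4.80 to 11.1 for blastocyst over 8-cell, 2.50 to 8.89 for 8-cell over oocyte, 21.9 to 57.7 for blastocyst over oocyte and 0.731 to 3.08 for blastocyst over 2-cell.

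Families passing the rule in either direction numbered 19 for 2-cell over oocyte and 8 among transposon families. For 8-cell over 2-cell they numbered 5, against 3 with at least 100 counts and 3 among transposon families. For blastocyst over 8-cell they numbered 6, and 3 with at least 100 counts. For 8-cell over oocyte they numbered 11, and 7 among transposon families. For blastocyst over oocyte they numbered 16, against 9 with at least 100 counts and 10 among transposon families. For blastocyst over 2-cell they numbered 6, and 3 among transposon families. The minimum count left fewer families to test than the 47 of the table. These were 36 for 8-cell over 2-cell, 30 for blastocyst over 8-cell and 36 for blastocyst over oocyte. The transposon setting had 34 families and changed both the families and the total, whose parts in these counts were not tested apart. Spearman's rho shared 1 of the 3 families most like ERVL. No paired analysis was possible because each stage is 1 sample and run numbers come from column names alone.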
